A study of Mus musculus with 6 samples.

Results

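The ADP-ribosylation factor (ARF) GTPases, the large exchange factors that load them with GTP and the GTPase-activating protein Arfgap1 were followed in macrophage-like cells treated with 15-HETE in the presence of LPS. The gene list held 10 genes, namely the GTPases Arf1, Arf2, Arf3, Arf4, Arf5 and Arf6, the exchange factors Arfgef1, Arfgef2 and Gbf1, and Arfgap1. A probe was taken where the platform annotation gave it a member as its only gene symbol. This rule found 8 probes for 7 of the 10 genes, among 33012 probes on the array, 14411 of them with 1 gene symbol. Arf3 had 2 probes, Arf1, Arf4, Arf5, Arf6, Gbf1 and Arfgap1 had 1 each, and Arf2, Arfgef1 and Arfgef2 were not analysed here. The family was picked with its values in this same comparison known, the opposite signs of the 2 Arf3 probes among them. The differences at its probes are therefore given as a description, with no p-value, and calls at these probes are only counted beside those of the whole array.

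RAW 264.7 is a mouse macrophage-like line, LPS is bacterial endotoxin, and 15(S)-HETE is a hydroxylated fatty acid made from arachidonic acid. In the 15-HETE + LPS group (n = 3) the cells received 40 μM 15(S)-HETE just before 1 μg/mL LPS. In the LPS group (n = 3) they received the same dose of LPS only. Both groups were cultured for 24 h, and each biological replicate was the RNA of 6 combined wells. Every group was LPS-stimulated, so the values bear on 15-HETE added to LPS and not on LPS itself. The sample titles carry an extra tag in the 15-HETE + LPS group only, and they do not say whether both groups were processed together. A difference in processing between the groups could not be told apart from the treatment.

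ARF proteins are small GTPases that sit on membranes in their GTP-bound form and leave them when GTP is hydrolysed. Exchange factors with a Sec7 domain load them with GTP, and GTPase-activating proteins switch them off. GTP-bound Arf1 and its close relative Arf3 recruit the COPI coat, clathrin adaptors and lipid-modifying enzymes to the Golgi, Arf4 and Arf5 work in the early secretory pathway, and Arf6 acts at the plasma membrane and on endosomes, where it takes part in phagocytosis and membrane recycling in macrophages.

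The values are linear chemiluminescence intensities on 1 quantile-normalized scale, on which each sample has its median at 837 and its values between 46.2 and 3047298. A level can be compared between samples at 1 probe, but not between probes. All 8 member probes were above the median of the array in mean log2 intensity. By the same measure 7 of 7 measured macrophage markers, such as Adgre1, Cd14 and Lyz2, were above the median, as were 4 of 6 fibroblast, 2 of 5 epithelial, 1 of 4 lymphocyte and 3 of 5 granulocyte markers. The lowest value on the array is 46.2, so no marker could be listed at 0. The summed intensity of the macrophage markers, most of it Lyz2, was 3668852 to 3804622 in 15-HETE + LPS and 2543943 to 3302095 in LPS, 7 of 7 had a log2 fold change above 0 (median 0.232), and limma called 0 of them. The fibroblast markers summed to 14082 to 15872 in 15-HETE + LPS and 22093 to 27453 in LPS (median log2 fold change -0.072). Of these 4 were below 0, Dcn the lowest at -1.30, and 2 above, Thy1 at 0.95 and Col3a1 at 0.48. The epithelial markers, most of their sum from Cldn4, came to 36346 to 47153 in 15-HETE + LPS and 67010 to 71647 in LPS (median -0.753). Here 4 were below 0 and 1, Epcam, above at 0.42. The lymphocyte markers came to 2126 to 5412 in 15-HETE + LPS and 2365 to 3487 in LPS (median -0.028). Granulocyte markers summed to 142970 to 216523 in 15-HETE + LPS and 61764 to 185450 in LPS, nearly all of it S100a8 (log2 fold change 0.47). Ltf was at 0.10, while Mpo was at -1.38, Elane at -1.08 and Ngp at -0.67, and the median was -0.668. The mean log2 intensity of the housekeeping probes was 18.12, 18.15 and 18.12 in 15-HETE + LPS and 18.43, 18.08 and 18.02 in LPS, so that LPS replicate 1 stood apart. The part of these differences in the results was not tested. All 6 samples were cultures of the 1 line RAW 264.7, so marker intensities are not read as shares of cell types. In bulk RNA they do not tell a difference in cell number from one in RNA per cell. Precision is limited by the small number of arrays.

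Arf3 gave the largest difference of the family at 1 probe and the smallest in size at the other. Probe 652348 read 5037.0, 4233.6 and 4804.9 in 15-HETE + LPS replicates 1, 2 and 3, against 1038.6, 1045.1 and 1108.3 in LPS. Every treated sample was thus far above every LPS sample, at 4.73-, 3.98- and 4.52-fold the LPS mean. The mean was 4692 ± 413 in 15-HETE + LPS and 1064 ± 38.5 in LPS (SD, n = 3 each), a log2 fold change of 2.14 with a standard error of 0.17. Ranked by log2 fold change from the top, this probe was number 83 of the 33012 on the array.

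The other Arf3 probe, 912252, read 23439.2, 22248.4 and 24506.6 in 15-HETE + LPS, against 24832.3, 25001.5 and 24866.4 in LPS. All 3 treated samples lay below all 3 LPS samples, but by little, since the ratio of means was 0.940 and the log2 fold change -0.09 with a standard error of 0.16. Its LPS samples were the tightest of any member, with a coefficient of variation of 0.359%, against 4.83% in the treated samples. Both probes carry the same transcript accession in the platform annotation, and their sequences and positions within the gene were not used here, so which Arf3 transcripts each reads is not known. The log2 fold changes of the 2 probes differed by 2.23. Among 540 genes with at least 2 probes of their own, the median difference between probes was 0.50, in 90% of genes it was at most 1.32, and 8 genes (1.48%) differed by as much as Arf3 or more. A statement on Arf3 mRNA as a whole therefore depends on which probe is read.

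**Figure D1:**
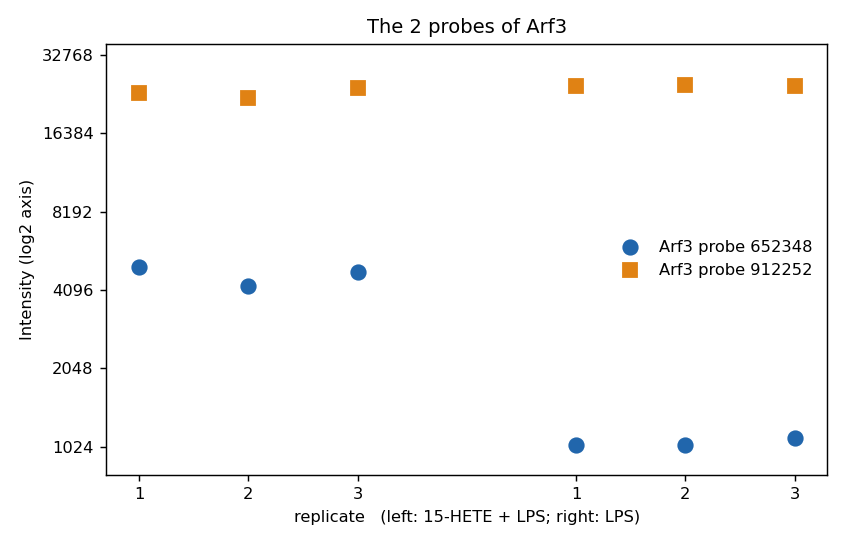
Intensity (log2 axis) of Arf3 probes 652348 (circles) and 912252 (squares) in each sample, 15-HETE + LPS replicates on the left and LPS replicates on the right. The circles lie at 4233.6 to 5037.0 in 15-HETE + LPS and at 1038.6 to 1108.3 in LPS, while the squares stay between 22248.4 and 25001.5 throughout; heights of the 2 probes are not comparable with each other.

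Arf5, a class II ARF of the early secretory pathway, read 84684.0, 81842.0 and 83728.3 in 15-HETE + LPS, against 47635.5, 63852.4 and 60589.4 in LPS. The groups did not overlap, and the treated samples were closely grouped (coefficient of variation 1.73%) while the LPS samples were spread (15.0%), replicate 1 being lowest. The log2 fold change was 0.55 with a standard error of 0.19. It was 0.42 without LPS replicate 1.

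The other GTPases differed by less. Arf1, the main recruiter of COPI, read 833162.6, 704620.2 and 740622.1 in 15-HETE + LPS and 743712.3, 545209.2 and 550778.2 in LPS. LPS replicate 1 lay within the treated range, so the groups overlapped, and the log2 fold change of 0.32 (standard error 0.21) was 0.47 without that sample. Arf4, the class II partner of Arf5, read 63668.9, 57958.1 and 67644.5 in 15-HETE + LPS and 61524.8, 54060.4 and 53806.3 in LPS. Here too LPS replicate 1 was inside the treated range, and the log2 fold change was 0.16 (standard error 0.18). Arf6 read 118828.8, 132077.8 and 118828.8 in 15-HETE + LPS and 111152.9, 107324.6 and 117212.1 in LPS. The groups just failed to meet, and the log2 fold change was 0.14 (standard error 0.17). Replicates 1 and 3 of the treated group hold the same Arf6 value because the probe had rank 1378 in both, and quantile normalization gives 1 value per rank.

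Gbf1, the exchange factor that activates ARFs at the cis-Golgi, was the most variable member. It read 1789.1, 3755.0 and 1554.0 in 15-HETE + LPS, against 4653.2, 3202.0 and 2199.8 in LPS. The groups overlapped, with treated replicate 2 above 2 of the 3 LPS samples and coefficients of variation of 51.1% in 15-HETE + LPS and 36.8% in LPS. The log2 fold change of -0.55 had a standard error of 0.43, and it was -0.94 without treated replicate 2 and -0.28 without LPS replicate 1. No direction can be given to Gbf1 from these samples.

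Arfgap1, which stimulates GTP hydrolysis by Arf1 on Golgi membranes, read 8198.7, 7401.2 and 9857.5 in 15-HETE + LPS, against 5951.6, 4681.1 and 4219.7 in LPS. The groups did not overlap, and the ratio of means was 1.71 and the log2 fold change 0.78 (standard error 0.22). It was the second largest of the family, and lay between 0.67 and 0.92 when any 1 sample was left out.

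**Figure D2:**
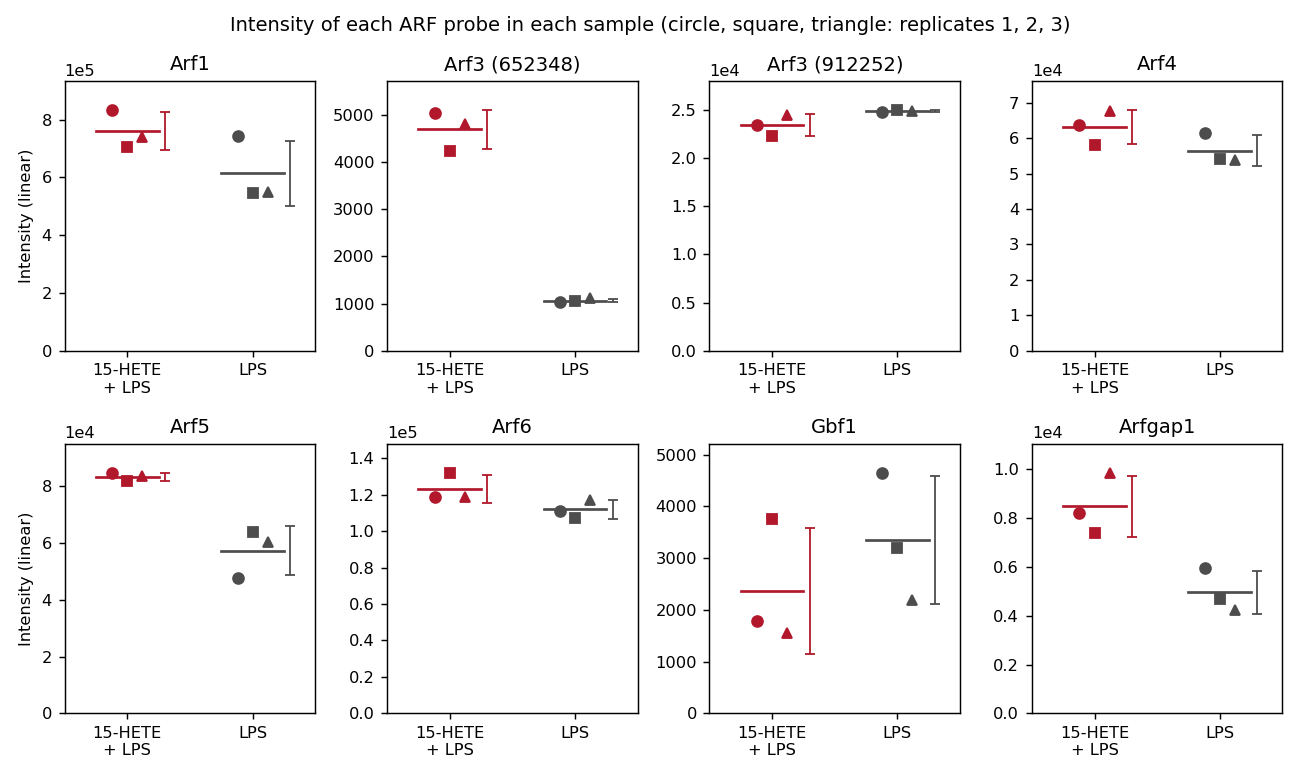
Linear intensity of each of the 8 member probes in the 15-HETE + LPS samples (red) and the LPS samples (grey), with the group mean (line) and SD (bar, n = 3); each panel has its own axis from 0. Arf3 probe 652348, Arf5, Arf6 and Arfgap1 lie higher in every treated sample, Arf3 probe 912252 lies slightly lower, and Arf1, Arf4 and Gbf1 overlap.

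Over the 8 probes, 6 log2 fold changes were above 0 and 2 below, with a median of 0.24, beside 0.0073 over all 33012 probes and a median size of 0.385. In 4 probes every treated sample was above every LPS sample and in 1 below, where 13.7% and 16.3% of all probes were so separated. Limma (Benjamini-Hochberg over all probes, adjusted p under 0.05) called 1 member probe higher, Arf3 652348, and 0 lower, where it called 0.509% of all probes higher and 0.442% lower. With a variance prior that follows the intensity (the intensity trend), it called 3 higher, adding Arf5 and Arfgap1, and 0 lower, where it called 3.87% and 4.96% of all probes. These counts describe probes that had been chosen on this comparison, and nothing is read from them.

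**Figure D3:**
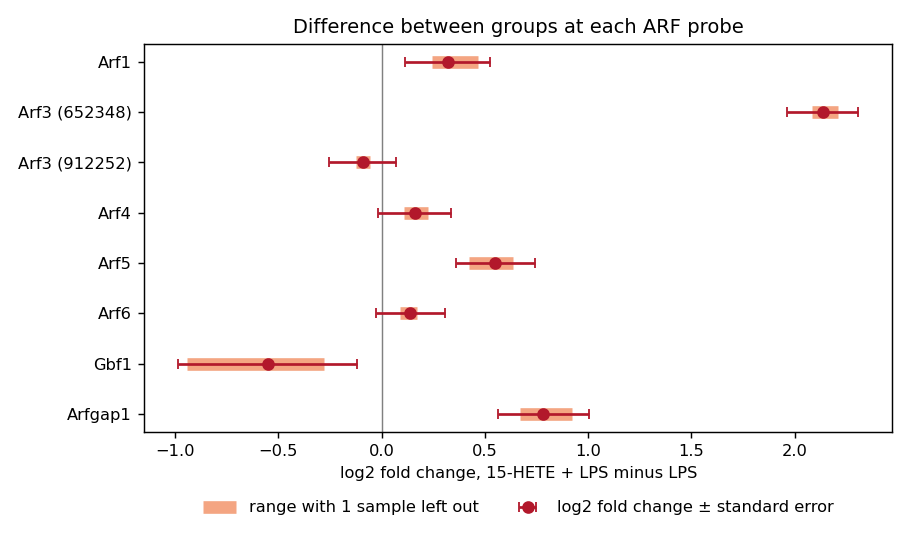
Log2 fold change of each member probe, 15-HETE + LPS minus LPS, with its standard error (line) and the range of the estimate when 1 sample is left out (band). Arf3 probe 652348 stands at 2.14, Arfgap1 at 0.78 and Arf5 at 0.55, the remaining positive values are at or under 0.32, Arf3 probe 912252 is at -0.09, and the band of Gbf1 runs from -0.94 to -0.28.

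The promoters of Arf3, Arf5 and Arfgap1 are shown to set the start sites beside the values above. These genes had the highest log2 fold changes of the family, Arf3 at probe 652348 only and not at probe 912252 (-0.09). Each promoter is the 250 bases before the most upstream annotated start, 5′ to 3′ on the gene's strand (RefSeq, GRCm38.p6). The Arf3 window is chr15:98763119-98763368 on the minus strand, that of Arf5 chr6:28423354-28423603 on the plus strand and that of Arfgap1 chr2:180966975-180967224 on the plus strand. Capitals mark GC boxes, GGGCGG on either strand.
Arf3: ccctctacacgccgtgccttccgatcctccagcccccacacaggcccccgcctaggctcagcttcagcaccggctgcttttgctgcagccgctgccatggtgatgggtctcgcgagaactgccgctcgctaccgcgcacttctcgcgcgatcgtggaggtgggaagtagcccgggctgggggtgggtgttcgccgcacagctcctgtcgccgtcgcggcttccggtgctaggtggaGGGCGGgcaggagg
Arf5: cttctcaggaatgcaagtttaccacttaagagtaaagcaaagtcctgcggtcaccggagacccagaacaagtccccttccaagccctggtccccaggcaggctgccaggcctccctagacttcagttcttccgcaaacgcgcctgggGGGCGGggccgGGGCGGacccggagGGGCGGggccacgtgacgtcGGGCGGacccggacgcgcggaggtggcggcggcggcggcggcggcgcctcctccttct
Arfgap1: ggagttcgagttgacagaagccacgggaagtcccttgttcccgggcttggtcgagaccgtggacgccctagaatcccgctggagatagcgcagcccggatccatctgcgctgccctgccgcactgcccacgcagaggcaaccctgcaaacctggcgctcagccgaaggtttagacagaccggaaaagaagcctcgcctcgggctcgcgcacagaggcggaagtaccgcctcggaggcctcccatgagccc
The windows were GC-rich, at 69.2% in Arf3, 68.8% in Arf5 and 64.8% in Arfgap1, where the median of 27025 mouse promoter windows was 52.0%. Arf3 had 1 GC box, Arf5 had 4 and Arfgap1 had 0, so the 3 genes did not share this element. Of the 8 list genes with a promoter sequence to hand, 6 had a GC box, as did 32.96% of all windows. The Arf5 window also held CACGTGACG, where the E-box CACGTG overlaps TGACG, the half-site of a cyclic AMP response element. That run was present in 0.3515% of all windows, and in 1 other list gene, Arfgef2. The run was taken from the overlap seen in the Arf5 sequence, so nothing is read from its rarity. A match describes letters and not a bound site.

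The 5 probes whose profile over the 6 samples was most like that of Arf3 652348 were those of the 14-3-3 protein Ywhag, the polyadenylation factor Cstf3, the tight junction protein Cldn11, clusterin (Clu) and the RNA-binding protein Hnrnpa3. Likeness was the root mean square difference in log2 intensity, each probe taken relative to its LPS mean, and it was 0.14 for Ywhag, 0.145 for Cstf3, 0.148 for Cldn11, 0.161 for Clu and 0.165 for Hnrnpa3. Ywhag read 51698.9, 49624.0 and 42810.7 in 15-HETE + LPS, against 11664.9, 11808.5 and 11618.3 in LPS. As in Arf3, its LPS samples were tight and its treated samples far above them, at a log2 fold change of 2.03. This likeness follows from how the probe was picked.

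The rest of the ARF cycle was followed in 6 lists by role, ARF-like and SAR1 GTPases, other Sec7 exchange factors, other GTPase-activating proteins, the COPI coat with its cargo receptors, clathrin adaptors recruited by ARF, and lipid enzymes and other effectors. Of 112 listed genes 78 were measured, each at its brightest probe. Limma called 0 of them, while 11 were higher and 13 lower at an unadjusted p under 0.05 (30.8%, beside 19.6% of all probes in either direction). With the intensity trend it called 8 higher and 9 lower (21.8% together), beside 3.87% of all probes higher and 4.96% lower. Most of these genes are bright, and when only the 16506 probes of above-median intensity were fitted, 14 of 73 genes were called (19.18%), beside 16.9% of those probes. No value below is past the limma threshold, and adjusted p-values are from limma.

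Among 9 measured ARF-like and SAR1 GTPases the median log2 fold change was 0.24, with 7 above 0 and 2 below, and it was 0.127 without LPS replicate 1. Arl3, which releases lipid-anchored proteins from their carriers for delivery to cilia, read 19965.8, 16831.6 and 17971.6 in 15-HETE + LPS, against 7347.2, 12726.2 and 12021.7 in LPS (log2 fold change 0.81, adjusted p = 0.171). Arl15, an ARF-like GTPase, read 3895.1, 4128.4 and 4288.2 against 1885.0, 2852.2 and 2413.2 (log2 fold change 0.80, adjusted p = 0.123). Both had separate groups and were called with the intensity trend. Trim23, a ubiquitin ligase that ends in an ARF domain, was at 0.71 (adjusted p = 0.161), and Arl11 at 0.24 (adjusted p = 0.459).

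Of 6 measured exchange factors outside the Gbf1 family, 3 were above 0 and 3 below. The median of 0.043 had no stable sign, as it was -0.171 without 15-HETE + LPS replicate 1 and 0.171 without 15-HETE + LPS replicate 3. Psd4, an exchange factor for Arf6, read 15462.4, 19472.4 and 21608.1 in 15-HETE + LPS, against 34065.7, 27039.8 and 33733.5 in LPS (log2 fold change -0.75, adjusted p = 0.138). Cyth3, a cytohesin that binds the lipid product of PI 3-kinase, read 2152.3, 2102.7 and 2484.3 against 1180.2, 1339.1 and 479.1 (1.30, adjusted p = 0.164), LPS replicate 3 being far below the other LPS samples. Psd3 (-1.30, adjusted p = 0.481) and the Sec7 protein Fbxo8 (0.29, adjusted p = 0.434) overlapped between groups. The Psd3 samples read 974.0, 1514.9 and 123.1 in 15-HETE + LPS, against 1628.0, 1503.6 and 1106.0 in LPS, so that its value rested on treated replicate 3 and ran from -2.01 to -0.20 with 1 sample left out. Another Psd3 probe was at 0.81.

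The GTPase-activating proteins other than Arfgap1 were the list with the lowest median, -0.35 over 18 measured genes, with 12 below 0 and 6 above. Arap1, a GTPase-activating protein for ARFs, read 55893.8, 69038.1 and 64145.6 in 15-HETE + LPS, against 213878.8, 131731.9 and 133167.6 in LPS (log2 fold change -1.31, adjusted p = 0.0728). The groups were well apart, and the value lay between -1.43 and -1.08 with any sample left out. Git1, a scaffold with activity toward Arf6, read 26307.1, 23841.3 and 27222.3 against 44530.1, 38719.8 and 41899.0 (-0.69, adjusted p = 0.110), Asap1, a protein of podosomes and focal adhesions, was at -0.72 (adjusted p = 0.104), and Smap2, which binds clathrin, at -0.76 (adjusted p = 0.105). With the intensity trend 0 of the 18 were called higher and 5 lower, beside 3.87% and 4.96% of all probes, and 15 of the 18 were above the median intensity of the array. The trend also called 3 higher and 2 lower among 18 clathrin adaptors, and 3 higher and 0 lower among 14 COPI genes. Among 9 ARF-like and SAR1 GTPases it called 2 higher and 0 lower. It called 0 higher and 1 lower both in the other exchange factors and in the lipid enzymes and effectors. Arfgap1 itself was at 0.78. The list median was -0.13 without LPS replicate 1.

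COPI subunits lay on both sides of 0. Copb1, the beta subunit, read 28540.6, 31402.7 and 28285.1 in 15-HETE + LPS, against 14335.9, 8885.5 and 7821.9 in LPS (log2 fold change 1.56, adjusted p = 0.0612). Copg1, the gamma-1 subunit, read 19350.1, 17944.1 and 20933.4 against 10699.3, 7027.9 and 6629.0 (1.29, adjusted p = 0.0684). Both lay apart from LPS in every sample, whereas Copa was at -0.33, Copb2 at -0.40, Copg2 at -0.04, Arcn1 at -0.07, Cope at -0.03, Copz1 at 0.41 and Copz2 at -0.34. The KDEL receptor Kdelr1, which returns escaped ER proteins, was at 0.53 (adjusted p = 0.156) and the p24 cargo receptor Tmed9 at 0.39 (adjusted p = 0.298). Over 14 measured genes the median was 0.365, with 8 above 0, and 0.212 without 15-HETE + LPS replicate 3.

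The AP-1 adaptor likewise gave values on both sides of 0. Its small subunits Ap1s2 (5464.7, 6210.3 and 5532.5 in 15-HETE + LPS, against 3038.3, 2658.8 and 2790.1 in LPS) and Ap1s1 (134463.9, 128767.8 and 134850.8 against 71632.8, 81957.7 and 74527.9) had log2 fold changes of 1.02 (adjusted p = 0.0587) and 0.81 (adjusted p = 0.0804). The large subunit Ap1b1 was at -0.52 (adjusted p = 0.186) and the monomeric adaptor Gga3 at -0.69 (adjusted p = 0.158). Over 18 adaptors 10 were above 0 and 8 below. Their median of 0.083 was -0.017 without 15-HETE + LPS replicate 3 and 0.175 without LPS replicate 1.

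Among 13 lipid enzymes and effectors 9 were below 0, with a median of -0.15, which was -0.275 without LPS replicate 3. The golgin Golga1, which tethers vesicles at the trans-Golgi, read 1195.6, 1008.9 and 1566.6 in 15-HETE + LPS, against 3231.0, 2779.2 and 2112.4 in LPS (log2 fold change -1.11, adjusted p = 0.101). Gcc1, another golgin, was at -0.57 (adjusted p = 0.217) and the scaffold Mapk8ip3 at -0.62 (adjusted p = 0.241), while Pi4kb, the Golgi PI 4-kinase that Arf1 recruits, was at 0.70 (adjusted p = 0.195). With the intensity trend 6 genes of the lists, Ap1s1, Ap1s2, Arap1, Asap1, Copb1 and Copg1, were called on all samples and again in each of the 6 fits without 1 sample. Those 6 fits were added after seeing the data, and they share most of their samples. They called 1223 to 5135 of all 33012 probes. The share of all probes called in every fit was not counted, so nothing is read from this for the ARF cycle.

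**Figure D4:**
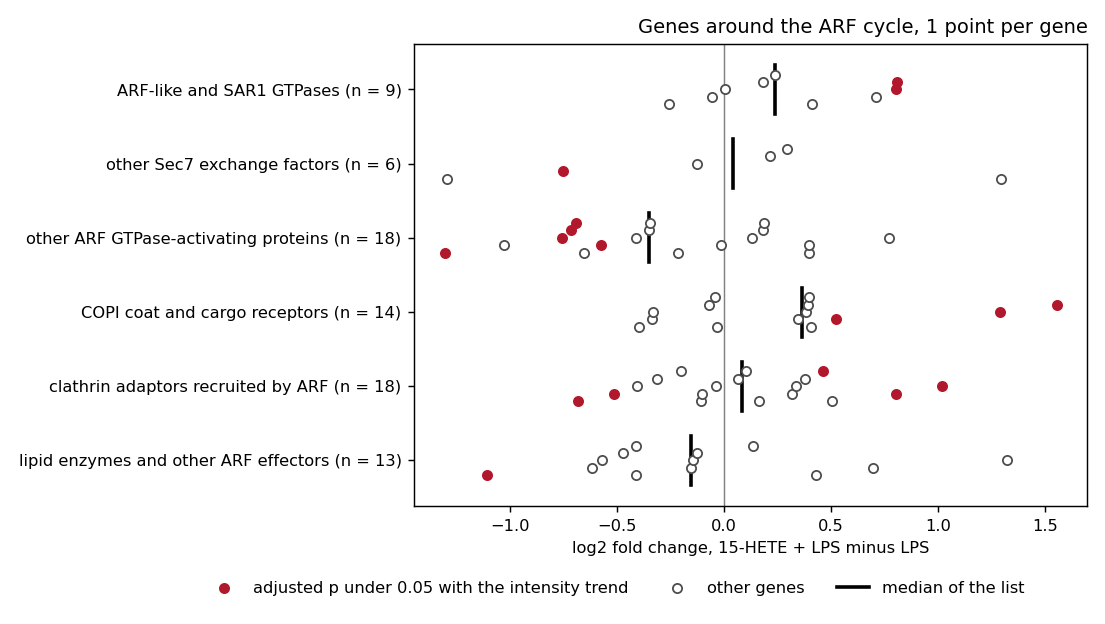
Log2 fold change of each measured gene of the 6 lists, 15-HETE + LPS minus LPS, 1 point per gene, with the list median (black bar). Filled points are genes called by limma with the intensity trend, 8 to the right of 0 and 9 to the left; limma without the trend called 0, and the medians run from -0.35 for the GTPase-activating proteins to 0.365 for COPI and its cargo receptors.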

How the data were processed

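RNA of 6 RAW 264.7 samples was hybridized to mouse genome survey arrays and read on a chemiluminescent analyzer. The deposited intensity values were quantile normalized by the authors; background correction is not given in the sources used here, and their S/N and flag filter could not be applied to this table. Values were turned to log2, since the deposited values are linear and not log2. Two-sided tests of all 33012 probes came from limma 3.58.1 (lmFit and eBayes, under R 4.3.3), and p-values were adjusted over them by the Benjamini-Hochberg method. Robust fits used statmod 1.5.0. The fit was checked on simulated data. Genes came from the platform annotation, and 14402 probes with 1 symbol matched the reference. Named were every member probe, the 4 genes of lowest p in each list, and the 5 nearest profiles. COPI subunits, Arfgef2 and another probe of Psd3 were named beyond these, the subunits after their values were seen, as were some markers of cell types. The members and lists were chosen with earlier results of these data known. Alternatives were other priors, normalizations, an offset of 50, filters, the methods' t-test, a replicate block and leaving out each sample. Motifs were searched on both strands.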

Additional observations from a re-analysis of the deposited data

How the results depend on the processing

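The number of member probes called, 1 by limma, was 3 with the intensity trend, 2 with a robust fit and 2 when dim probes were left out. It was 0 with the methods' t-test over all probes or at the study's thresholds with limma. Past the fold rule were 2 member probes. With the methods' t-test over all probes of the array past that rule, as the methods describe it, the number was 1 (Arf3). Without 1 sample it was 0 to 0, as limma then called 0 probes on the whole array. With the intensity trend, added after seeing the data, it was 1 to 4, and 4 without LPS replicate 1, where Arf1 was called too. Pathway genes called, 0 by limma, were 17 with the intensity trend, 18 with a robust fit, 14 without dim probes, 6 by the mean of all probes of a gene, and 1 each with housekeeping centring, an offset of 50 and the methods' t-test over probes past the fold rule. Without 1 sample they were 0 to 0. With the intensity trend they were 7, 6 and 9 without 15-HETE + LPS replicates 1, 2 and 3 in turn. They were 33 (21 higher and 12 lower), 9 and 10 without LPS replicates 1, 2 and 3. The counts of member probes and pathway genes stand beside 1223 to 5135 of all 33012 probes called in these same fits with the intensity trend. Without dim probes, limma called 16.9% of the 16506 probes kept. The share of all probes called is not given for the robust fit, the other normalizations, the offset or the gene means. Nor is it given for the methods' t-test, the study's thresholds or the replicate block. Nothing is read from the counts under those settings. The replicate block called 0 member probes and 0 pathway genes, and same-numbered samples deviated together at -0.024, 0.003 and 0.024, so the numbers do not pair the samples. The gap between the Arf3 probes was 2.305 with cyclic loess and 2.177 to 2.265 without 1 sample. The median of the member probes was 0.187 to 0.323 without 1 sample. All 104 alternative values of single member probes kept their sign. They moved by less than the log2 SD of the more variable group at that probe. At some probes, such as Arf5 and Arf3 912252, some moved by more than the SD of the other group. The cause of these changes was not tested. Groups of 3 and unknown probe positions limit what can be said of Arf3.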

Other observations

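Another probe disagreement of the kind seen in Arf3 was present in the AP-3 adaptor, whose medium subunit Ap3m1 had a log2 fold change of 0.16 at its brightest probe and 2.13 at another. Among markers of other cell types, 20 of 21 were measured and 0 were called higher and 4 lower by limma with the intensity trend, beside 3.87% and 4.96% of all probes. The 4 were Dcn of fibroblasts (log2 fold change -1.30), the epithelial genes Krt8 (-1.05) and Cldn4 (-0.75), and the granulocyte gene Mpo (-1.38). Thy1 of fibroblasts (0.95) and S100a8 of granulocytes (0.47) were above 0 and not called by it. The robust fit called 1 fibroblast marker higher, and 1 fibroblast, 2 epithelial and 1 granulocyte marker lower. Its share of all probes is not given here. Limma without the trend called 0 of the 20.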
